A study of Oryctolagus cuniculus with 12 samples.

Results

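The circadian clock genes examined here were PER1, PER2, PER3, CRY1, CRY2, ARNTL, NR1D1, NR1D2, DBP, and TEF, chosen by matching their symbols to the rows of the gene table. Of the 10 listed symbols, 9 had a row among the 20566 genes of the table, and 8 passed the filter on low counts and were tested. Expression was measured by RNA sequencing in conjunctiva of female Japanese white rabbits aged 12 to 14 weeks, with 3 libraries in each of 4 groups. The groups TL3h, TL3d, and TL14d held filtration blebs taken at 3 hours, at 3 days, or at 14 days following trabeculectomy, a glaucoma operation that drains aqueous humor under the conjunctiva. The right eyes were operated on with mitomycin C, an antiproliferative drug, and received a conjunctival injection of betamethasone, a synthetic glucocorticoid, at the end of surgery. The control group held conjunctiva of left eyes that were not operated on. The bleb was therefore the site of an incision, mitomycin C, and a glucocorticoid together, and these cannot be told apart. The hour of the day at which tissue was taken is not given in the sources used here, so time of day and time after surgery cannot be told apart either.

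The molecular clock is a feedback loop of transcription that runs in nearly every mammalian cell. ARNTL (BMAL1) pairs with CLOCK and activates genes that carry E-boxes, among them the PER and CRY genes, whose proteins return to the nucleus and repress the pair. The nuclear receptors NR1D1 and NR1D2 (REV-ERB alpha and beta) are further targets and repress ARNTL, while DBP, TEF, and HLF carry the rhythm to output genes through D-box elements. PER1 also responds directly to glucocorticoids and to cAMP signaling, which reset clocks in peripheral tissues.

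The libraries held 27111276 to 38591374 counts. Levels are given as CPM, the count relative to the TMM-scaled library size, and tests are edgeR quasi-likelihood tests in 1 fit of all 12 libraries, with q the Benjamini-Hochberg adjusted p over 14835 genes 0.05 its threshold, and SE the standard error. The labels do not say which control belongs to which operated eye, and p-values measure only the spread between these samples. TL14d replicate 1 and control replicate 3 were treated as standing apart. TL14d replicate 1 correlated on average at 0.962 with the control libraries and at 0.898 with its own group, and control replicate 3 had the lowest mean correlation among the controls, 0.938. TL3d replicate 3 was about as far from its group (0.939), and TL14d replicates 2 and 3 further (0.914 and 0.930). Many, not all, of the results that rest on the 2 libraries treated as standing apart are given with and without them. Epithelial markers of the conjunctiva were present in every library (6 of 9 had a row, with summed levels of 5753 to 18100 CPM). In bulk tissue, fewer cells of a type and less RNA per cell cannot be told apart.

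In unoperated conjunctiva, NR1D2 was the most abundant of the tested clock genes per length and ARNTL the least. The authors' FPKM values, which divide by gene length, averaged 92.3 ± 6.13 for NR1D2, 33.4 ± 9.35 for NR1D1, 27.1 ± 2.89 for TEF, and 21.0 ± 15.1 for PER1 in the control group (SD, n = 3 each). They averaged 14.8 ± 1.28 for CRY2, 10.05 ± 2.91 for PER2, 8.18 ± 2.96 for CRY1, and 5.39 ± 2.02 for ARNTL. The ranges over the 3 control libraries did not overlap between NR1D2 and NR1D1 or between CRY2 and PER2, whereas those of all other neighbors in this order did. PER3 (gene ID 108177596) was represented by a model of 513 bases on chromosome 13, from 142037451 to 142040664 of OryCun2.0, with 2 counts in control replicate 3 and 0 in the other libraries. It was under the floor of 3 counts per library, equal to 0.0712 to 0.124 CPM, and was not tested. DBP matched no row of the table by that name and was not analysed here.

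The clock genes moved in different directions 3 hours after surgery. CRY1 rose, while TEF and NR1D2 fell, and the other 5 did not pass the test. This was 3 of 8 members, against 45.4% of all genes tested, with 1 member higher (23.2% of all genes) and 2 lower (22.2%), so the count itself did not set the clock genes apart. Without overlap of the groups, CRY1 was higher (28.9% of all genes) and CRY2, NR1D1, NR1D2, and TEF were lower (28.3%). At 3 days, NR1D2, CRY2, PER2, and TEF were lower, which was 4 of 8 members against 17.6% of all genes in either direction, with 10.6% higher and 7% lower. With any 1 of the 6 control or TL3d libraries left out, the count at 3 days was 1, NR1D2. The number of all genes called in either direction also moved, being 2608 with all libraries and between 388 and 557 without replicate 1 or 2 of either group, whereas it was 2295 without control replicate 3 (6.41% of all genes lower) and 2296 without TL3d replicate 3. Without TL14d replicate 1 the count of members at 3 days was 6, with NR1D1 and PER1 added, against 10.9% of all genes lower. PER1, PER2, CRY2, NR1D1, NR1D2, and TEF were below every control at 3 days, 6 of 8 members against 21.7% of all genes. At 14 days, 0 members passed, as did 0% of all genes, and 1538 genes had an unadjusted p under 0.05. The DESeq2 test also called 0 members at 14 days, with 367 of all genes. Without TL14d replicate 1, 1 member (NR1D1, lower) and 721 of all genes passed at 14 days (3.58% higher and 1.28% lower). The median log2 fold change of the 8 members was -0.48 at 3 hours, -1.30 at 3 days, and -0.13 at 14 days, against 0.02, -0.0018, and 0.02 over all genes.

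**Figure D1:**
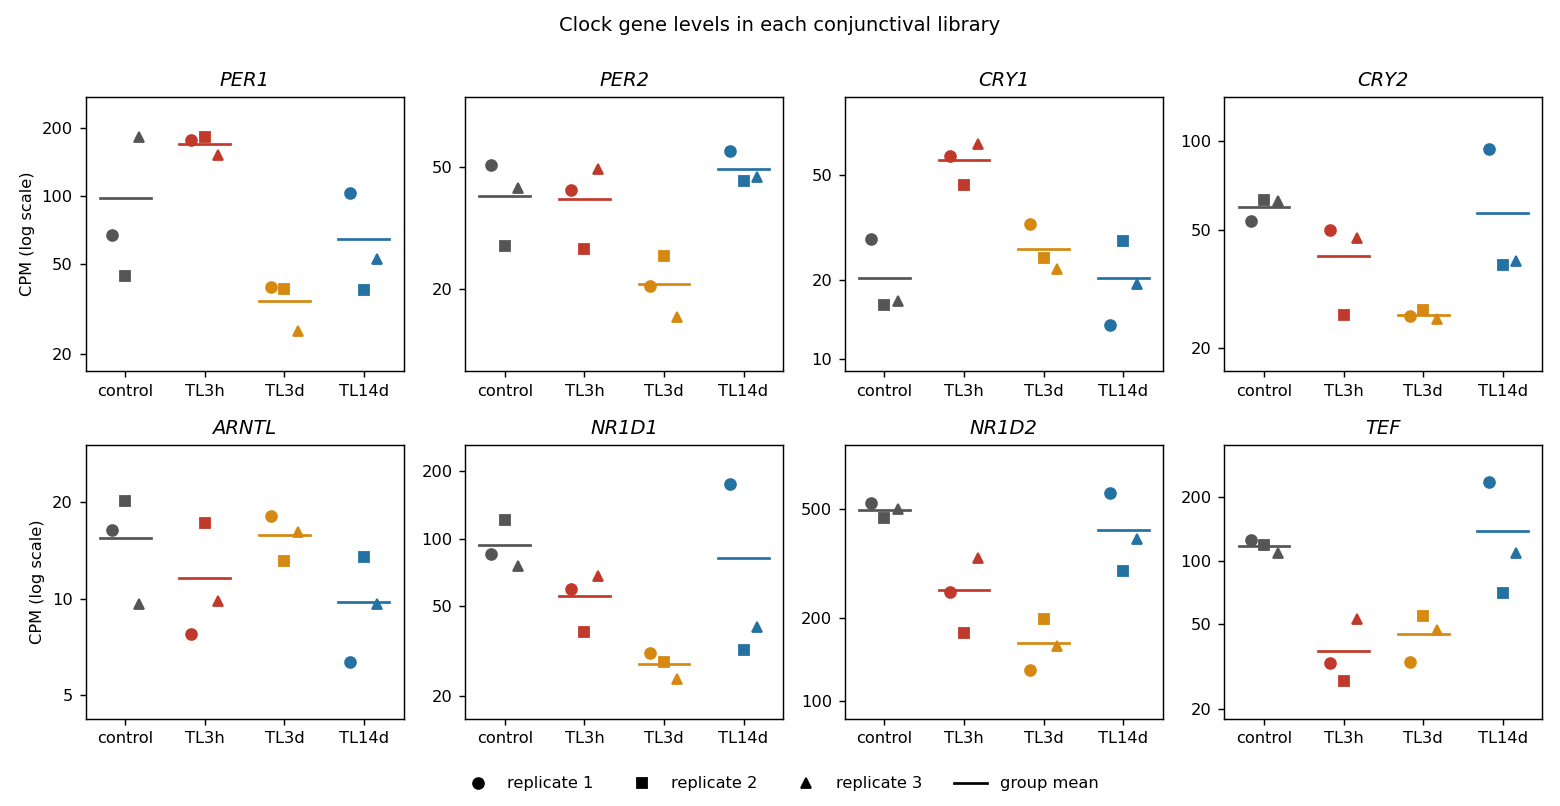
Level of each tested clock gene in each library, in CPM on a log axis, with a bar at the group mean and a marker for each replicate number. CRY1 was higher in all TL3h libraries than in any control, PER1, PER2, CRY2, NR1D1, NR1D2, and TEF were lower in all TL3d libraries than in any control, and TL14d replicate 1 was the highest of its group in 6 of 8 genes.

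CRY1 and CRY2, the cryptochromes that hold the CLOCK and ARNTL pair inactive, passed the test at different times, CRY1 upward at 3 hours and CRY2 downward at 3 days. CRY1 (gene ID 100347047, chromosome 4, 89377247 to 89471315, plus strand) was at 28.6, 16.2, and 16.6 CPM in the controls and at 59.4, 45.9, and 66.1 CPM at 3 hours. All TL3h libraries were above all controls, with a log2 fold change of 1.48 (SE 0.31, q = 0.00363). CRY1 was at 32.8, 24.3, and 22.1 CPM at 3 days (log2 fold change 0.37, q = 0.417) and at 13.5, 28.2, and 19.3 CPM at 14 days (-0.01, q = 0.994), and both groups overlapped with the controls. CRY1 was lower at 3 days than at 3 hours by a log2 fold change of -1.11 (SE 0.31, q = 0.0181), and lower at 14 days than at 3 hours by -1.49 (0.31, q = 0.00365). The former q exceeded 0.05 without TL3h replicate 1 or 3 or TL3d replicate 2 or 3 and was 0.137 with libraries scaled by their totals alone. Of the members, 3 were lower at 3 days than at 3 hours, against 19% of all genes, and at 14 days 2 were lower and 1 higher than at 3 hours, against 22.3% and 22.9%.

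CRY2 (gene ID 100344454, chromosome 1, 185198872 to 185230124, plus strand) was at 53.8, 63.5, and 63.1 CPM in the controls. It was at 50.1, 26.0, and 47.0 CPM at 3 hours, all below the controls, without passing the test (log2 fold change -0.55, SE 0.35, q = 0.223). With libraries scaled by their totals alone, its value at 3 hours was -1.05 (q = 0.0304), and this scaling moved the median of all genes from 0.02 to -0.47. At 3 days, CRY2 was at 25.6, 26.9, and 25.1 CPM, the narrowest group of any clock gene, and was lower than the control by a log2 fold change of -1.22 (SE 0.35, q = 0.0408). Its q at 3 days ranged from 0.00585 to 0.112 over the alternatives and exceeded 0.05 when any of the control or TL3d libraries or TL3h replicate 3 was left out (0.0696 without control replicate 3). At 14 days, CRY2 was at 94.1, 38.1, and 39.5 CPM, with replicate 1 above and replicates 2 and 3 below every control.

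The ratio of CRY1 to CRY2 within a library does not depend on how the libraries are scaled. It was 0.532, 0.254, and 0.264 in the controls, 1.19, 1.77, and 1.41 at 3 hours, and 1.28, 0.902, and 0.883 at 3 days. On the mean log2 scale it was 4.36-fold higher at 3 hours and 3.06-fold higher at 3 days than in the controls, with no overlap between the groups. At 14 days, with ratios of 0.144, 0.740, and 0.489, the groups overlapped. An exact two-sided permutation test gave p = 0.1 at 3 hours and 3 days, the smallest that 3 against 3 libraries allow.

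PER1, the clock component that reacts fastest to hormones and other acute signals, was high in all 3 libraries taken 3 hours after surgery and in 1 control library. PER1 (gene ID 100342071, chromosome 19, 11095197 to 11109696, plus strand) was at 66.9, 44.1, and 182 CPM in the controls, 175, 181, and 151 CPM at 3 hours, 39.2, 38.7, and 25.1 CPM at 3 days, and 103, 38.4, and 52.4 CPM at 14 days. Control replicate 3 thus exceeded every other control and all TL3h libraries. The log2 fold change at 3 hours was 0.79 (SE 0.50, q = 0.226), and without control replicate 3 it was 1.55 (0.41, q = 0.0135). At 3 days, all libraries were below all controls, and the log2 fold change was -1.51 (SE 0.51, q = 0.0652). Without control replicate 3 it was -0.71 (q = 0.219), and its q was below the threshold with the DESeq2 test (0.0171) and without TL14d replicate 1 (0.0404). The TL3d and TL14d libraries were all below the TL3h libraries (28.5% of all genes were apart and lower at 3 days against 3 hours, and 27.6% at 14 days against 3 hours), whereas TL14d and TL3d overlapped (log2 fold change 0.91, q = 0.313). PER1 was lower at 3 days than at 3 hours by a log2 fold change of -2.30 (SE 0.52, q = 0.00671), which stayed past the threshold under all 20 alternatives. PER1 was also lower at 14 days than at 3 hours (-1.39, SE 0.51, q = 0.0465), and this q ranged from 0.00124 to 0.147 and exceeded 0.05 in 13 of 20 alternatives, among them those without control replicate 1, any TL3h or TL3d library, or TL14d replicate 2 or 3.

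Genes known to be induced by glucocorticoids were set beside PER1, because the operated eyes had received betamethasone. Of the 9 genes on that list, PER1 included, 8 were highest in control replicate 3 among the controls, and DUSP1 was highest in control replicate 1. The share of all genes highest in control replicate 3 was not counted. FKBP5, a chaperone partner of the glucocorticoid receptor, was at 7.26, 8.83, and 454 CPM in control replicates 1, 2, and 3, and at 185, 231, and 296 CPM at 3 hours. PDK4, a kinase that restrains glucose oxidation, was at 4.63, 5.35, and 356 CPM in the controls and at 340, 400, and 301 CPM at 3 hours. The transcription factor ZBTB16 was at 13.0, 14.0, and 275 CPM in the controls, and KLF9 was at 17.98, 24.98, and 216 CPM. FKBP5, PDK4, and KLF9 were named after their values had been seen. In control replicate 3, the level was 56.4-fold the mean of the other controls for FKBP5, 71.4-fold for PDK4, 20.4-fold for ZBTB16, 10.1-fold for KLF9, and 3.27-fold for PER1. It was 2.63-fold for SGK1, 2.05-fold for TSC22D3, 1.46-fold for ERRFI1, and 1.07-fold for DUSP1. The part of these genes in the level of PER1 was not tested.

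**Figure D2:**
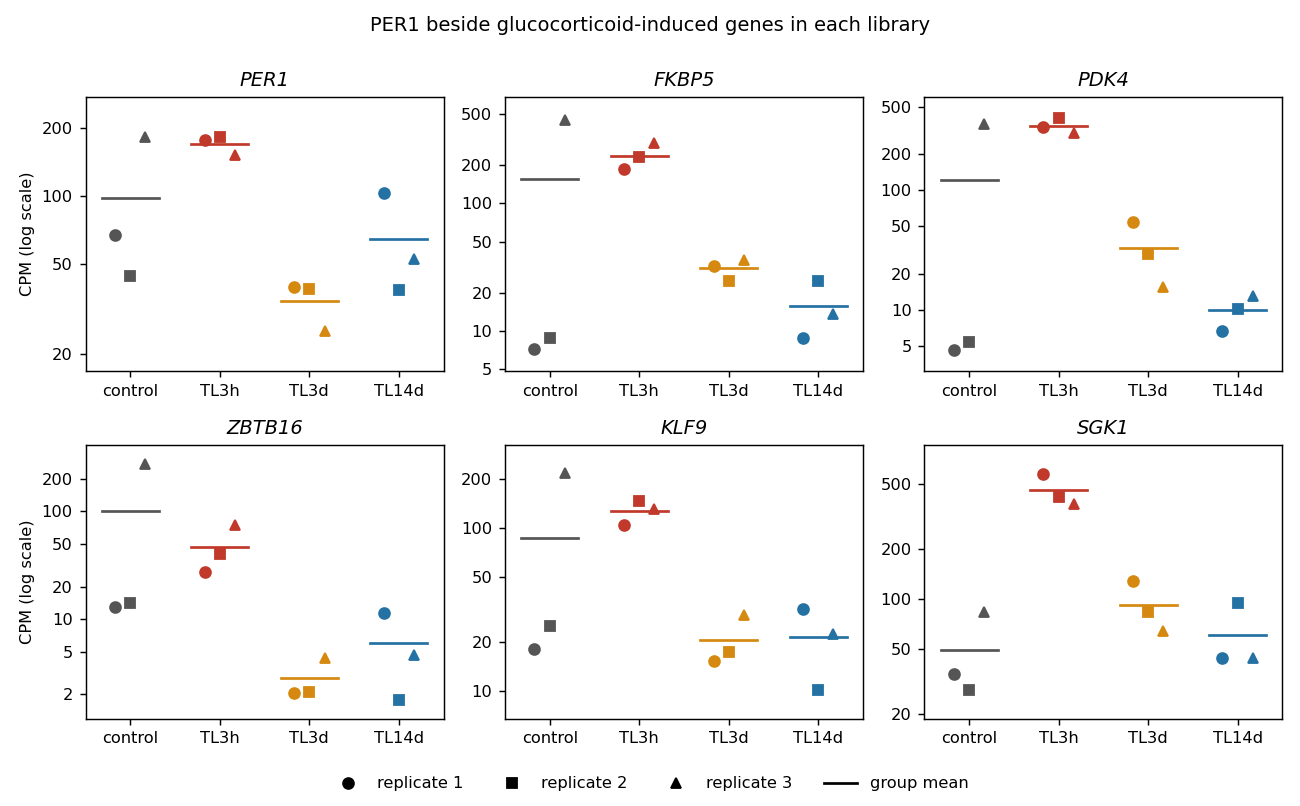
PER1 and 5 glucocorticoid-induced genes in each library, in CPM on a log axis, with bars at group means. In control replicate 3 all 6 genes were above the other controls, and FKBP5 was at 454 CPM against 7.26 and 8.83 CPM.

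With all libraries, 3 of the 9 glucocorticoid-induced genes were higher at 3 hours and 0 lower, against 23.2% and 22.2% of all genes. These were ERRFI1, a feedback inhibitor of the EGF receptor (log2 fold change 4.30, q = 1.69e-05), DUSP1, a phosphatase of MAP kinases (2.93, q = 3.89e-05), and the kinase SGK1 (3.23, q = 0.000612). Without control replicate 3, 7 of 9 were higher at 3 hours and 0 lower, against 22.6% and 23.6% of all genes, with PER1, FKBP5 (4.83, q = 0.00013), PDK4 (6.07, q = 0.000132), and KLF9 (2.51, q = 0.00294) added. ZBTB16 was not past the threshold at 3 hours (-1.10, q = 0.444, and 1.74, q = 0.0779 without control replicate 3). TSC22D3 was not past it at 3 hours with or without control replicate 3. It was at 247, 171, and 428 CPM in the controls and at 282, 328, and 196 CPM at 3 hours. At 3 days, 2 of 9 were lower and 0 higher with all libraries (7% and 10.6% of all genes), namely ZBTB16 (-5.15, q = 0.0268) and TSC22D3, an anti-inflammatory leucine zipper protein (-1.79, q = 0.0449). Without control replicate 3 their q was 0.0553 and 0.108, and that of ZBTB16 also exceeded 0.05 without TL3d replicate 1 or 2. TSC22D3 was named after its values had been seen. Without control replicate 3 the count at 3 days was 0 lower and 4 higher, against 6.41% and 9.06% of all genes.

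The list of genes that answer cAMP and other acute stimuli, which also holds PER1, had 7 of 9 members higher at 3 hours and 1 of 9 at 3 days, with 0 lower at either time. Of all genes, 23.2% were higher at 3 hours and 10.6% at 3 days. Without control replicate 3, 8 of 9 were higher at 3 hours, against 22.6% of all genes. Without TL14d replicate 1, 8 of 9 were higher at 3 hours (7257 of all genes past the threshold in either direction). At 3 days, 1 was then higher and 1 lower, against 14.8% and 10.9% of all genes. The transcription factor genes NR4A1 (log2 fold change 3.35, q = 8.38e-05), CREM (3.78, q = 9.98e-05), NR4A2 (2.22, q = 0.000107), and FOSB (4.76, q = 0.000128) were the members with the smallest q at 3 hours. CREM was the member past the threshold at 3 days (1.24, q = 0.0461), a call lost in 12 of 20 alternatives (q up to 0.14, without control replicate 1).

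PER2, the partner of PER1 in the repressor complex, passed the test at 3 days and not at 3 hours. PER2 (gene ID 100349720, unplaced sequence, 376545914 to 376579255 of the joined sequence, minus strand) was at 50.6, 27.6, and 42.6 CPM in the controls and at 42.2, 27.0, and 49.1 CPM at 3 hours, with full overlap (log2 fold change -0.03, 95% interval -0.64 to 0.58, q = 0.937). At 3 days, PER2 was at 20.5, 25.7, and 16.2 CPM, below every control, with a log2 fold change of -0.95 (SE 0.28, q = 0.0423). That call was close to the threshold: q ranged from 0.0095 to 0.134 and exceeded 0.05 in 11 of 20 alternatives. These were the block on replicate number, the fit of only the 6 libraries, and those without any 1 control or TL3d library, TL3h replicate 1, TL14d replicate 3, or both libraries that stand apart, and q was highest without control replicate 1. PER2 was lower at 3 days than at 3 hours (-0.92, SE 0.28, q = 0.0253, and 0.237 with libraries scaled by their totals alone), a call also lost without TL3h replicate 1 or 3 or TL3d replicate 1 or 3. At 14 days it was at 56.2, 45.0, and 46.5 CPM and overlapped with the controls (0.29, q = 0.739).

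ARNTL, the activator of the loop, did not pass the test at any time. ARNTL (gene ID 100350800, chromosome 1, 155097314 to 155171188, plus strand) was at 16.4, 20.2, and 9.65 CPM in the controls, 7.72, 17.3, and 9.80 CPM at 3 hours, 18.1, 13.1, and 16.1 CPM at 3 days, and 6.32, 13.5, and 9.60 CPM at 14 days. All 3 groups overlapped with the controls. The 95% interval of its log2 fold change was -1.26 to 0.43 at 3 hours, -0.80 to 0.87 at 3 days, and -1.50 to 0.19 at 14 days.

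The REV-ERB receptors, which repress ARNTL, were both lowest at 3 days. NR1D2 (gene ID 100349421, chromosome 14, 10293272 to 10329084, plus strand) was at 525, 464, and 499 CPM in the controls, 250, 177, and 331 CPM at 3 hours, and 130, 199, and 159 CPM at 3 days. Neither of these later groups overlapped with the controls. The log2 fold change of NR1D2 was -0.97 at 3 hours (SE 0.28, q = 0.0179) and -1.61 at 3 days (0.29, q = 0.0118). The call at 3 days held under all 20 alternatives (q from 2.95e-06 to 0.0484), and that at 3 hours was lost without control replicate 1 (q = 0.0515) and without TL3h replicate 2. At 14 days, NR1D2 was at 571, 297, and 389 CPM and overlapped with the controls. It was higher at 14 days than at 3 days by 1.37 (SE 0.29, q = 0.0439), the single member past the threshold in that comparison against 0.647% of all genes higher, a call lost in 11 of 20 alternatives, with the highest q, 0.158, without TL3d replicate 1.

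NR1D1 (gene ID 100357678, chromosome 19, 41291446 to 41298795, minus strand) was at 85.3, 121, and 75.8 CPM in the controls, 59.9, 38.4, and 68.3 CPM at 3 hours, and 31.2, 28.5, and 23.9 CPM at 3 days. Both groups were below all controls. The log2 fold change was -0.76 at 3 hours (SE 0.55, q = 0.291) and -1.75 at 3 days (0.56, q = 0.0559), neither past the threshold. At 3 days it passed in 6 of 20 alternatives, namely the DESeq2 test, limma-trend, the fit of only the 6 libraries, and those without TL14d replicate 1, TL14d replicate 2, or both libraries that stand apart. At 14 days, NR1D1 was at 174, 31.97, and 40.6 CPM, so replicate 1 was above and the other 2 below every control. Leaving out TL14d replicate 1 lowered the SE of NR1D1 at 3 days to 0.25, and q was then 0.0292 at 3 hours (against 24.1% of all genes lower), 0.00298 at 3 days (against 10.9% of all genes lower), and 0.033 at 14 days (-1.37, against 1.28% of all genes lower).

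**Figure D3:**
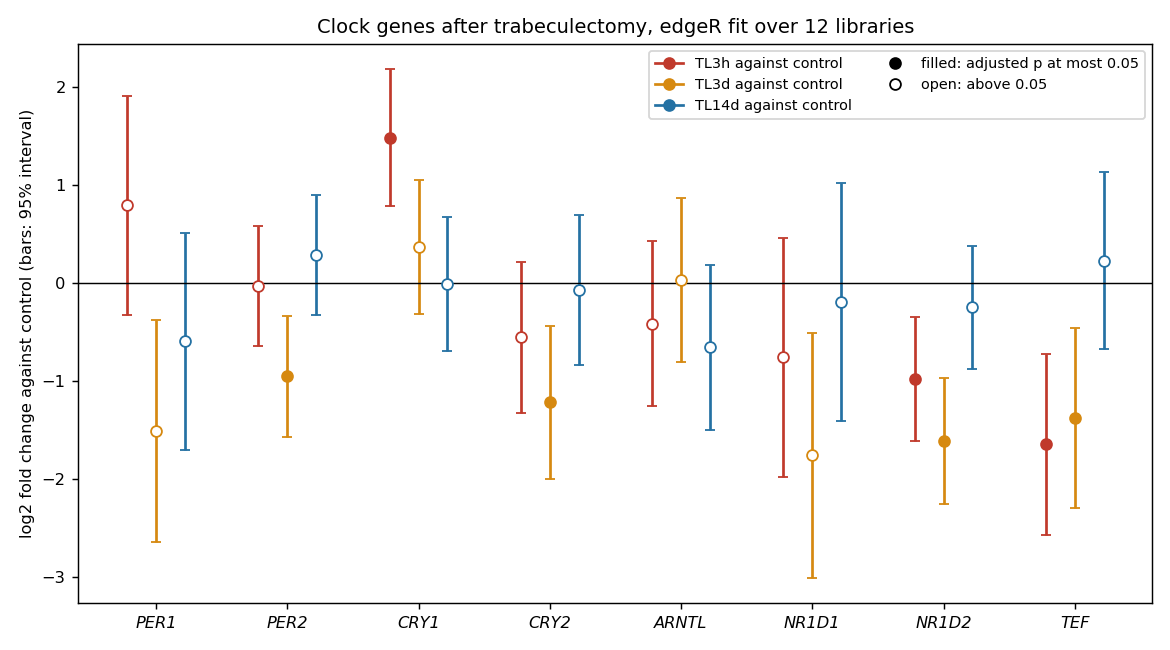
Log2 fold change of each tested clock gene against the control at the 3 times after surgery, with 95% intervals from the edgeR fit over all 12 libraries. Filled points passed q = 0.05, namely CRY1, NR1D2, and TEF at 3 hours and PER2, CRY2, NR1D2, and TEF at 3 days, and at 14 days every interval included 0.

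The ratio of NR1D1 to ARNTL, a repressor over its target, was 5.20, 5.97, and 7.85 in the controls and 1.72, 2.17, and 1.48 at 3 days, a 3.54-fold lower mean with no overlap (exact two-sided permutation p = 0.1, the smallest possible). At 3 hours the ratio was 7.76, 2.22, and 6.97, and at 14 days it was 27.5, 2.37, and 4.23, and both groups overlapped with the controls. NR1D2 relative to NR1D1 overlapped with the controls at all 3 times, as did PER1 relative to PER2.

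TEF, a D-box activator and the remaining output factor of the list, had the strongest fall at 3 hours among the members. TEF (gene ID 100353476, unplaced sequence, 171310969 to 171337122 of the joined sequence, minus strand) was at 125, 119, and 108 CPM in the controls, 32.7, 27.0, and 52.9 CPM at 3 hours, and 33.1, 55.0, and 47.3 CPM at 3 days. The highest of these 6 operated libraries was at 55.0 CPM, against a control mean of 117 ± 8.77 CPM (SD, n = 3). The log2 fold change was -1.65 at 3 hours (SE 0.42, q = 0.00904), kept under all 20 alternatives, and -1.38 at 3 days (0.41, q = 0.0454), lost in 10 of 20, with any 1 control or TL3d library left out among them (q up to 0.143, without TL3d replicate 1). At 14 days, TEF was at 235, 70.0, and 108 CPM, overlapping with the controls. TEF was higher at 14 days than at 3 hours (1.88, SE 0.42, q = 0.00496), a call kept under all 20 alternatives, with values from 1.25 to 2.36.

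The share of TEF transcript counts given to each of its start regions also differed between the groups. The table gave TEF 4 transcript models that share their 3′ end and fall into 2 pairs by start. The upstream pair, of 3823 and 3839 bases, starts at 171337121 and 171337122 of the joined sequence, and the downstream pair, of 3906 and 3890 bases, starts 9417 bases further along the gene. The counts of the 4 models summed to 3.77% to 4.94% more than the TEF count of the gene table in each library, and shares are of that sum. The upstream pair made up 44.6%, 48.6%, and 45.2% of it in the controls, 20.9%, 22.9%, and 17.1% at 3 hours, and 6.98%, 10.6%, and 19.9% at 3 days. The mean share was thus lower by 25.8 percentage points at 3 hours and by 33.6 at 3 days, with no overlap (exact two-sided permutation p = 0.1, the smallest possible). Within the upstream pair, the model of 3839 bases held 480, 515, and 390 estimated counts in the controls. It held 88.3, 44.6, and 0.000607 at 3 hours and 0.00144, 0.000585, and 171 at 3 days. At 14 days the shares were 54.0%, 27.2%, and 48.0%, and they overlapped with the controls.

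With the TEF level of the gene table split between the pairs by these shares, the upstream pair was at 48.8 to 57.7 CPM in the controls, 6.18 to 9.05 CPM at 3 hours, and 2.31 to 9.39 CPM at 3 days. The downstream pair was at 59.2 to 69.5, 20.8 to 43.8, and 30.8 to 49.2 CPM in the same groups, also without overlap with the controls. In the test across 26082 transcripts, the upstream model of 3823 bases had a log2 fold change of -2.99 at 3 hours (SE 0.63, q = 0.00588, against 14.1% of all transcripts lower) and -3.35 at 3 days (0.64, q = 0.0279, against 1.88% lower). The downstream model of 3890 bases had -1.13 at 3 hours (0.34, q = 0.031) and -0.67 at 3 days (0.34, q = 0.246). The remaining TEF models did not pass the test. These models share most of their sequence, so the split rests on how the counting software divided shared reads, which is not given in the sources used here.

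**Figure D4:**
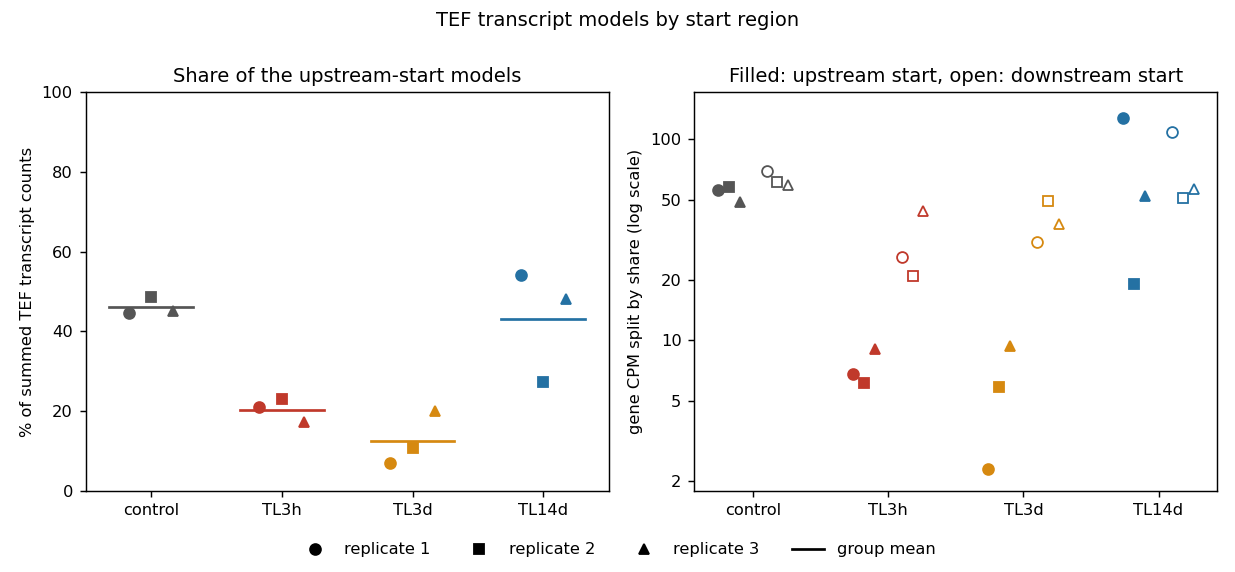
TEF transcript models by start region in each library: the share of the summed TEF transcript counts given to the upstream pair in percent (left, bars at group means), and the gene CPM of TEF split between the pairs by these shares, on a log axis (right). The upstream share was 44.6% to 48.6% in the controls and 17.1% to 22.9% at 3 hours.

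Among the other transcripts, the single model of CRY1 was higher at 3 hours (q = 0.0072, against 14.1% of all transcripts higher). That of NR1D2 was lower at 3 hours (log2 fold change -1.03, q = 0.0226, against 14.1% lower) and at 3 days (-1.62, q = 0.0255, against 1.88% lower). A second NR1D1 model of 2488 bases held no whole count in the controls, 18.4 to 44.7 estimated counts at 3 hours, and 0 to 47.1 at 3 days, beside the model of 2697 bases that held the rest. It passed the test at 3 hours (log2 fold change 8.25, SE 2.20, q = 0.036) with 1.81% to 2.39% of the NR1D1 transcript counts. This split, too, rests on how the counting software divided shared reads.

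The other genes of the clock were read from lists of 23 genes, of which 21 had a row and were tested. At 3 hours, 6 were higher and 4 lower, and at 3 days 3 were higher and 2 lower, close to the shares over all genes (23.2% and 22.2% at 3 hours, 10.6% and 7% at 3 days). At 14 days 0 passed the test, whereas BHLHE40 (log2 fold change 1.28, q = 0.0469) and NAMPT (-0.47, q = 0.0379) were among those that passed when TL14d replicate 1 was left out, against 3.58% of all genes higher and 1.28% lower. Of the core activators CLOCK, NPAS2, and ARNTL2, 0 of 3 passed at 3 hours or 3 days. ARNTL2, a paralog of ARNTL, was at 0.0712, 2.43, and 1.20 CPM in the controls and at 37.8, 28.2, and 9.90 CPM at 3 days, above all controls (log2 fold change 4.36, SE 1.49, q = 0.0672). Leaving out TL14d replicate 1 gave it q = 0.0329, so that 1 of 3 was then higher at 3 days, against 14.8% of all genes. CLOCK, the partner of ARNTL, was at 104, 86.7, and 101 CPM in the controls and at 78.3, 79.6, and 112 CPM at 3 hours (log2 fold change -0.11, q = 0.624).

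Of the other repressors of the CLOCK and ARNTL pair, 1 of 3 was higher at both times, against 23.2% and 10.6% of all genes. At 3 hours it was 2 of 3 without control replicate 3 (22.6% of all genes), with CIART added (log2 fold change 1.25, q = 0.00505, in place of 0.41, q = 0.492). BHLHE40 (DEC1) was at 95.2, 106, and 129 CPM in the controls, 356, 279, and 330 CPM at 3 hours, and 269, 278, and 170 CPM at 3 days. Both groups were above all controls, with log2 fold changes of 1.55 (q = 0.00281) and 1.12 (q = 0.0362).

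The remaining D-box factors moved in opposite directions at 3 hours. HLF, an activator related to TEF, was at 93.7, 98.6, and 153 CPM in the controls, 27.4, 14.6, and 30.3 CPM at 3 hours, and 8.74, 15.3, and 23.1 CPM at 3 days. HLF fell by 2.26 on the log2 scale at 3 hours (q = 0.00187) and by 2.87 at 3 days (q = 0.0095). NFIL3 (E4BP4), which represses at the same elements, was at 1.49, 2.08, and 6.82 CPM in the controls and at 86.5, 115, and 58.0 CPM at 3 hours (log2 fold change 4.64, q = 0.00121). Its log2 fold change at 3 hours ranged from 4.18 to 5.55 over the 20 alternatives. At 3 days it was at 14.0, 11.4, and 17.8 CPM, above all controls without passing the test (2.05, q = 0.0735). It passed at 3 days in 4 of 20 alternatives, among them that without control replicate 3 (2.99, q = 0.033). The ratio of NFIL3 to TEF was 0.0119, 0.0175, and 0.0631 in the controls and 2.64, 4.28, and 1.10 at 3 hours. At 3 days it was 0.423, 0.206, and 0.377. On the mean log2 scale, the ratio was 98.1-fold higher at 3 hours and 13.6-fold higher at 3 days, with no overlap. At 14 days, with 0.003, 0.0905, and 0.0367, the ratio overlapped with the controls.

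**Figure D5:**
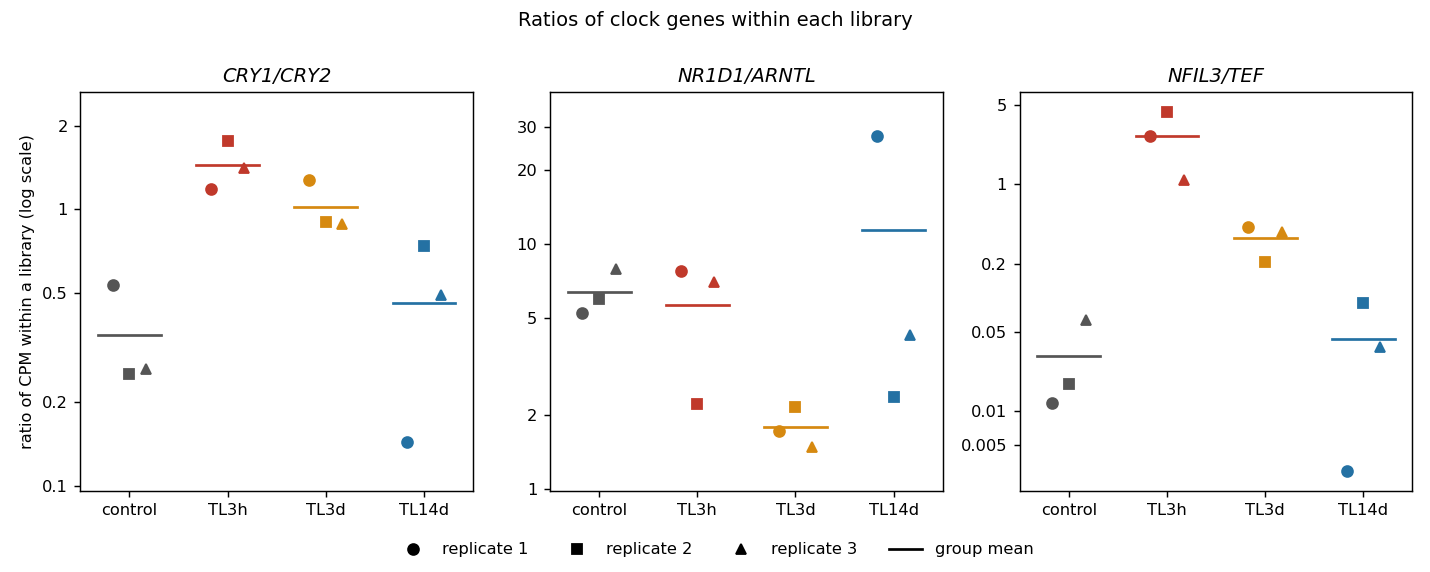
Ratios of CPM within each library for CRY1 to CRY2, NR1D1 to ARNTL, and NFIL3 to TEF, on log axes with bars at group means. The CRY1 to CRY2 and NFIL3 to TEF ratios were above all controls at 3 hours and 3 days, and TL14d replicate 1 had the lowest of all 12 libraries for these ratios (0.144 and 0.003) and the highest for NR1D1 to ARNTL (27.5).

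Among the kinases, ligases, and partners of PER and CRY, 2 of 5 tested were higher and 2 lower at 3 hours, and 1 higher and 1 lower at 3 days, against 23.2% and 22.2% of all genes at 3 hours and 10.6% and 7% at 3 days. With control replicate 3 left out, 1 was higher and 3 lower at 3 hours and 1 higher and 2 lower at 3 days, against 22.6% and 23.6% of all genes at 3 hours and 9.06% and 6.41% at 3 days, and TIPIN lost its call (q = 0.0958). CSNK1D, a kinase that marks PER for degradation, was higher at 3 hours (log2 fold change 1.07, q = 0.000939). BTRC, a ligase subunit that binds phosphorylated PER, was lower at 3 hours (-2.05, q = 4.48e-05) and at 3 days (-0.91, q = 0.0144). TIMELESS, better known in mammals for DNA replication, was lower at 3 hours (-1.27, q = 0.00172) and higher at 3 days (1.16, q = 0.0153). TIPIN, its partner, was higher at 3 hours (0.44, q = 0.0319), a call lost in 10 of 20 alternatives, and its value was -0.058 (q = 0.774) with libraries scaled by their totals alone. Of the clock output genes, 2 of 5 were higher at 3 hours and 1 of 5 at 3 days. The count at 3 hours was 4 of 5 without control replicate 3 (against 22.6% of all genes), with KLF9 (2.51, q = 0.00294, in place of 0.55, q = 0.613) and USP2 (1.63, q = 0.00628, in place of 0.22, q = 0.812) added. KLF10 was higher at both times (2.01, q = 0.000505, and 1.35, q = 0.0179), and NAMPT, an enzyme of NAD synthesis, was higher at 3 hours (0.66, q = 0.0013, and 0.335 with libraries scaled by their totals alone). The calls of HLF and of BHLHE40, NFIL3, BTRC, CSNK1D, TIMELESS, and KLF10 at 3 hours held under all 20 alternatives. At 3 days, q exceeded 0.05 for BHLHE40 (0.114), BTRC (0.0583), and KLF10 (0.0668) without control replicate 1 or 2 or TL3d replicate 1 or 2, and for TIMELESS (0.0558) without control replicate 2 or TL3d replicate 1, the highest values being given. BHLHE40 was also lost without TL3h replicate 3.

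The 14-day libraries differed most among themselves. The median SD of log2 CPM over the 8 clock genes was 0.64 at 14 days, 0.40 in the controls, 0.45 at 3 hours, and 0.30 at 3 days, against 0.37, 0.27, 0.30, and 0.24 over all 14835 genes. TL14d replicate 1 was the highest of its group in PER1, PER2, CRY2, NR1D1, NR1D2, and TEF and the lowest in CRY1 and ARNTL. TL14d replicate 2 was the reverse in all 8 genes. Without TL14d replicate 1, TEF at 14 days had a log2 fold change of -0.40 (q = 0.489) in place of 0.23 (q = 0.868), and CRY2 had -0.63 (q = 0.172) in place of -0.07.

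Markers of other cells moved with the groups and libraries, beside 23.2% of all genes higher and 22.2% lower at 3 hours and 10.6% and 7% at 3 days. All 7 neutrophil markers were higher at 3 hours, with summed levels of 3.44 to 83.2 CPM in the controls, 1181 to 2988 CPM at 3 hours, and 260 to 916 CPM at 3 days. At 14 days the neutrophil sum was 3.26, 2113, and 197 CPM in replicates 1, 2, and 3. The 5 macrophage markers with a row summed to 68.0 to 601 CPM in the controls and 1244 to 2002 CPM at 3 days, and 3 of 5 were higher. The 6 fibroblast markers summed to 8569, 24310, and 53180 CPM in the controls and 69635 to 87649 CPM at 3 hours, without any passing the test, and to 1074, 8670, and 45541 CPM at 3 days, where TL3d replicate 3 was the highest. The 6 epithelial markers had 2 lower and 0 higher at 3 hours and 1 higher and 0 lower at 3 days, and their sum at 3 hours, 5753 to 9208 CPM, overlapped with the controls at 6571 to 10050 CPM. The 5 endothelial markers summed to 19.6 to 256 CPM in the controls, 603 to 1198 CPM at 3 hours, where 2 of 5 were higher, and 281 to 538 CPM at 3 days. The 2 goblet cell markers with a row summed to 486 to 1663 CPM in the controls and 102 to 467 CPM at 3 hours, and 1 was lower. The 5 Schwann cell markers summed to 16.4 to 24.9 CPM in the controls, 32.5 to 49.4 CPM at 3 hours, where 1 was higher, and 7.14 to 11.2 CPM at 3 days. The 3 corneal markers with a row summed to 247 to 444 CPM in the controls, 157 to 203 CPM at 3 hours, where 1 was lower, and 475 to 541 CPM at 3 days, where 1 was higher. The sums of the T cell markers overlapped with the controls at both times, and 1 of 6 was lower at 3 hours. The 4 skeletal muscle markers with a row summed to 25.0 to 302 CPM in the controls and 12.9 to 13.2 CPM at 3 hours, and 0 of 3 tested passed. At 3 days the muscle sum was 1.62, 1.91, and 344 CPM, again highest in TL3d replicate 3. The part of these cells in the clock gene differences was not tested.

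The genes most like a clock gene in pattern were ranked by the root mean square difference of log2 CPM, centered over the 12 libraries, among 13253 genes. For PER1 they included JDP2, a leucine zipper repressor of AP-1 sites (0.32), and the ubiquitin ligase SIAH2 (0.41). JDP2 averaged 98.8 ± 44.7 CPM in the controls, 208 ± 53.3 at 3 hours, 46.8 ± 1.65 at 3 days, and 66.8 ± 26.5 at 14 days (SD, n = 3 each). For ARNTL, whose own root mean square over the libraries was 0.51, they were LOC100349005, annotated as guanylate-binding protein 4 (0.35), TUBGCP5 (0.36), and LPAR6 (0.38). TEF, taken in place of DBP after its values had been seen, was closest to FBXO32, a muscle atrophy ubiquitin ligase (0.26), SGF29 (0.31), and the kinase MAP3K13 (0.33). FBXO32 averaged 152 ± 11.3 CPM in the controls, 39.5 ± 8.81 at 3 hours, 48.8 ± 4.55 at 3 days, and 132 ± 49.2 at 14 days.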

How the data were processed

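Messenger RNA of 12 conjunctival samples was sequenced by the authors as paired-end reads from a stranded library and mapped to rabbit OryCun2.0 with STAR (2.6.0c per the processing notes). The authors counted reads per gene and transcript with GeneData Profiler and deposited estimated counts and FPKM values. How reads with several placements were shared, and whether strand was used, is not given in the sources used here, and no row overlapped a clock gene. The deposited estimated counts were rounded to whole numbers and analysed with edgeR 4.0.16 in R 4.3.3: TMM scaling, genes kept by filterByExpr (minimum count 10, minimum total 15), and 1 quasi-likelihood fit of 14835 genes with no covariates. The SE is the log2 fold change over the root of F. The authors' FPKM values served only to compare levels between genes. limma 3.58.1 and DESeq2 1.42.0 were alternatives, with other scalings, no filter, other sample sets, the replicate number as a block, and each library left out. Ratios and shares were compared by exact permutation tests. The script was tested on simulated data. No pair of libraries within a group was a copy (mean squared difference at least 86.8 times counting variance).

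The clock genes and all lists were chosen with earlier results of these data known. The text names all clock genes and, from each other list, at most 4 genes with the smallest q against the control, except where it says otherwise, and some results are not reported here. No clock gene sequence was used here, and coordinates on unplaced sequence are those of the authors' joined sequence.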

Additional observations from a re-analysis of the deposited data

Results flagged for a closer look

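The tests between time points, which compare effects that share the control group, passed the threshold in 7 cases (edgeR quasi-likelihood test, Benjamini-Hochberg over 14835 genes). Of all genes, 19% were lower at 3 days than at 3 hours. At 14 days, 22.3% of all genes were lower and 22.9% higher than at 3 hours, and 0.647% were higher than at 3 days. PER1 was lower at 3 days than at 3 hours by a log2 fold change of -2.30 (q = 0.00671) and lower at 14 days than at 3 hours by -1.39 (q = 0.0465), with no overlap between the groups in either case. PER2 was lower at 3 days than at 3 hours by -0.92 (q = 0.0253). CRY1 was lower at 3 days than at 3 hours by -1.11 (q = 0.0181) and at 14 days than at 3 hours by -1.49 (q = 0.00365). NR1D2 was higher at 14 days than at 3 days by 1.37 (q = 0.0439), and TEF was higher at 14 days than at 3 hours by 1.88 (q = 0.00496). In TEF, the TL14d libraries were at 235, 70.0, and 108 CPM, against 27.0 to 52.9 CPM at 3 hours. Of 20 alternatives, 13 lost the PER1 call for 14 days against 3 hours, and 11 lost that of NR1D2. The PER2 and CRY1 calls for 3 days against 3 hours were each lost in 5.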

How the results depend on the processing

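Of 960 values of the clock genes under the alternatives, 836 kept direction and side of the threshold, 64 lost the threshold, 34 gained it, and 26 changed sign. The number of clock genes past the threshold was 3 at 3 hours (2 to 4 with each library left out), 4 at 3 days (1 to 6), and 0 at 14 days (0 to 1). Between time points it was 3 for 3 days against 3 hours (1 to 5), 3 for 14 days against 3 hours (2 to 3), and 1 for 14 days against 3 days (0 to 2). Without control replicate 3 and TL14d replicate 1 together, chosen after seeing the data, clock gene counts were 5, 4, 1, 5, 3, and 0. The counts over all genes were then 7566, 3914, 1015, 6532, 6617, and 318. With libraries scaled by their totals alone, 1 clock gene passed for 3 days against 3 hours and 5 for 14 days against 3 hours. Over all genes, 6306 and 7440 then passed in these comparisons. This scaling also moved the all-gene median, in log2 units, from -0.050 to 0.43 and from 0.0043 to 0.49. The 2 clock gene counts were therefore read from values shifted across all genes. For 14 days against 3 days, DESeq2 called 5 clock genes, limma-trend 2 (477 of all genes), and a fit of only the 6 libraries 0. The causes were not tested. At 3 days, DESeq2 called 4471 of all genes against 2608. At 14 days it called 367 of all genes against 0 (721 without TL14d replicate 1, and 1015 also without control replicate 3), and for 14 days against 3 days 1850 against 332, where the fit of only the 6 libraries called 15. The member transcripts past the threshold were 7, and 9 or 6 under the alternatives run. Of all transcripts, 14.1% were higher and 14.1% lower at 3 hours, and 1.88% were lower at 3 days.

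Replicate numbers were not used to pair the samples in the main fit. Of 18 same-numbered pairs from different groups, 8 correlated above 0.1 in their deviations (-0.147 to 0.481). Of 36 other pairs, 8 did (-0.525 to 0.391). With deviations taken from means of 3 libraries, these values cannot decide whether the numbers pair the samples. With the replicate block, 2 clock genes passed at 3 days and 0 for 14 days against 3 days, and CRY1 at 14 days was 0.033.

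Signs changed as follows, in log2 fold change. With totals alone as scaling, TIPIN at 3 hours was -0.058, ARNTL at 3 days -0.0067, and ARNTL for 14 days against 3 hours 0.25. With limma-trend, ZBTB16 at 3 hours was 0.22. Without both libraries that stand apart, ZBTB16 at 3 hours was 1.74 (q = 0.0313), ARNTL at 3 days -0.23, CRY1 at 14 days 0.070, and TEF at 14 days -0.47, and for 14 days against 3 hours CRY2 was -0.036, ARNTL 0.034, and NR1D1 -0.57. With each library left out in turn, PER2 at 3 hours ranged from -0.27 to 0.17, ZBTB16 at 3 hours from -1.63 to 1.74, ARNTL at 3 days from -0.23 to 0.28, and NR4A1 at 3 days from -0.074 to 0.45. At 14 days PER1 ranged from -1.10 to 0.20, CRY1 from -0.32 to 0.31, NR1D1 from -1.37 to 0.19, CRY2 from -0.63 to 0.15, and TEF from -0.40 to 0.55. For 14 days against 3 hours, ARNTL ranged from -0.54 to 0.20, CRY2 from -0.080 to 0.70, and NR1D1 from -0.61 to 0.95. No main value among these was past the threshold except that of TIPIN. PER3, under the floor of 3 counts in every library, could not be compared at this depth.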
